A study of Mus musculus with 4 samples.

Results

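Oxidative phosphorylation, by which mitochondria make ATP, is carried out by protein complexes of the inner mitochondrial membrane. Complex I takes electrons from NADH and complex II takes them from succinate; complex III passes them to cytochrome c, complex IV hands them to oxygen, and complex V uses the resulting proton gradient to make ATP. Most of the subunits are encoded in the nucleus, and some of the catalytic ones in mitochondrial DNA. The genes described here are the nuclear ones, chosen by symbol: every gene whose MGI symbol begins with Ndufa, Ndufb, Ndufc, Ndufs or Ndufv and a digit, with Cox4 to Cox8, with Atp5 or with Uqcr, the Sdha to Sdhd genes, Cyc1 and Cycs. This gave 83 of the 24026 genes of the table, all protein-coding: 35 of complex I, 4 of complex II, 9 of complex III, 20 of complex IV, 14 of complex V and cytochrome c itself. Ndufa4 and Ndufa4l2 were counted with complex IV, in which the NDUFA4 protein is found. Cox7a2l was left with complex IV by its symbol, although its protein binds complex III. No measured value was used to choose them. Subunits encoded in mitochondrial DNA were not analysed here.

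The study mapped contacts of the genome with the nucleolus, and its RNAseq measured gene expression in F123-ESCs, a male hybrid mouse embryonic stem cell line whose maternal chromosomes are S129 and whose paternal ones are CAST. All 4 libraries are of untreated cells of this 1 line, passaged at least 2 times without feeder cells and harvested about 48 h after plating, and are named replicates 1 to 4. Nothing in the labels says that they came from separate cultures, so that the spread between them may be technical. PolyA-enriched RNA was sequenced with strand information in paired reads of 150 bp, and each read that covers a difference between the strains was given to S129 or CAST. Expression is in RPKM, the reads of one allele scaled by the length of the gene and by all reads given to that allele in the library, so that S129 and CAST values each have their own total. Replicate 1 had the most reads given to an allele (28772351 for S129 and 27855621 for CAST) and replicate 4 the fewest (17403695 and 16716721). All 8 pluripotency markers were detected, with a median of 105 RPKM, while 8 feeder fibroblast markers ranged from 0.0462 to 166 RPKM, the highest being Col1a2, a collagen chain.

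Promoters of this gene group are known for binding sites of NRF1, of GABP and of YY1, regulators of genes for mitochondrial proteins. RefSeq promoter sequences (GRCm38.p6, 250 bases before to 50 bases after the start) were found for 67 of the 83 genes and for 17491 protein-coding genes in all. The letters GCGCATGCG, part of the NRF1 motif, were present on either strand in 9 of the 67 promoters (13.4%), against 2.61% of all. CCGGAAG, an ETS motif bound by GABP, was in 16 (23.9%), against 12.9% of all. AAGATGGCG, part of the YY1 motif, was in 7 (10.4%), against 2.14% of all. Below are stretches around a match upstream of the start, shown since a larger share of these promoters than of all promoters held these letters; capitals mark the motif, and all are written 5′ to 3′ on the strand of the gene. The NRF1 letters read nearly the same on both strands, so that 1 site can match on each.
Cycs, NRF1, 61 bases before the start (chr6:50566612-50566640, minus strand): catgctagctCGCATGCGCgcgcacaaac
Atp5g2, NRF1, 42 bases before the start (chr15:102671071-102671099, minus strand): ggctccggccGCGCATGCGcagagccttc
Atp5k, NRF1, 50 bases before the start (chr5:108434431-108434459, minus strand): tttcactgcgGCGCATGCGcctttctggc
Ndufa11, NRF1, 60 bases before the start (chr17:56717692-56717720, plus strand): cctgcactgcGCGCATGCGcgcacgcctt
Atp5j, YY1, 88 bases before the start (chr16:84835046-84835074, minus strand): aagtgtaggaAAGATGGCGgagtcttagc
These matches are descriptions of the letters only, and no binding was measured. Of the regulators, Nrf1 was at 23.8 ± 1.94 RPKM, Gabpa, which encodes a subunit of GABP, at 48.1 ± 2.92 RPKM and Yy1 at 7.37 ± 0.866 RPKM (SD, n = 4). Ppargc1a, a coactivator of NRF1 known for driving mitochondrial genes in muscle and brown fat, was listed at 0.0127 RPKM, and its relative Ppargc1b at 2.69 ± 0.203 RPKM.

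The gene group was abundantly expressed as a whole. The level of a gene is here the mean of both alleles, and the S129 allele alone for genes of the X chromosome. In replicates 1 to 4, the median over the 83 genes was 177, 173, 165 and 168 RPKM, giving 171 ± 5.28 RPKM (SD, n = 4), while over all 20253 protein-coding genes it was 1.73 ± 0.0775 RPKM. At least 1 RPKM was reached by 73 of the 83 genes (88.0%), against 55.1% of all protein-coding genes. At least 100 RPKM was reached by 48 genes (57.8%), against 4.76%. Together, the 83 genes took 2.82% ± 0.344 of the reads given to an allele (SD, n = 4), from 2.54% in replicate 3 to 3.29% in replicate 4. With lengths of all annotated exons in place of those behind the deposited values, the median over the members was lower, at 115 RPKM.

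The comparison of one gene with another is limited by how these values were made. Only reads over a difference between the strains are counted, so that a short mRNA with few such differences is listed low whatever its abundance; the positions of these differences were not analysed here. Moreover, the gene length behind the deposited values was mostly that of 1 transcript. It could be recovered for 82 members and was shorter than the longest coding sequence for 7 of them, such as Atp5o, Ndufs1 and Ndufv3. Among the 73 genes of at least 1 RPKM, the deposited value was a median of 1.47 times that with the length of all exons, from 0.410 times for Ndufa11 to 7.26 times for Ndufb7. Between-gene orders in the following are therefore orders of the listed values.

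**Figure D1:**
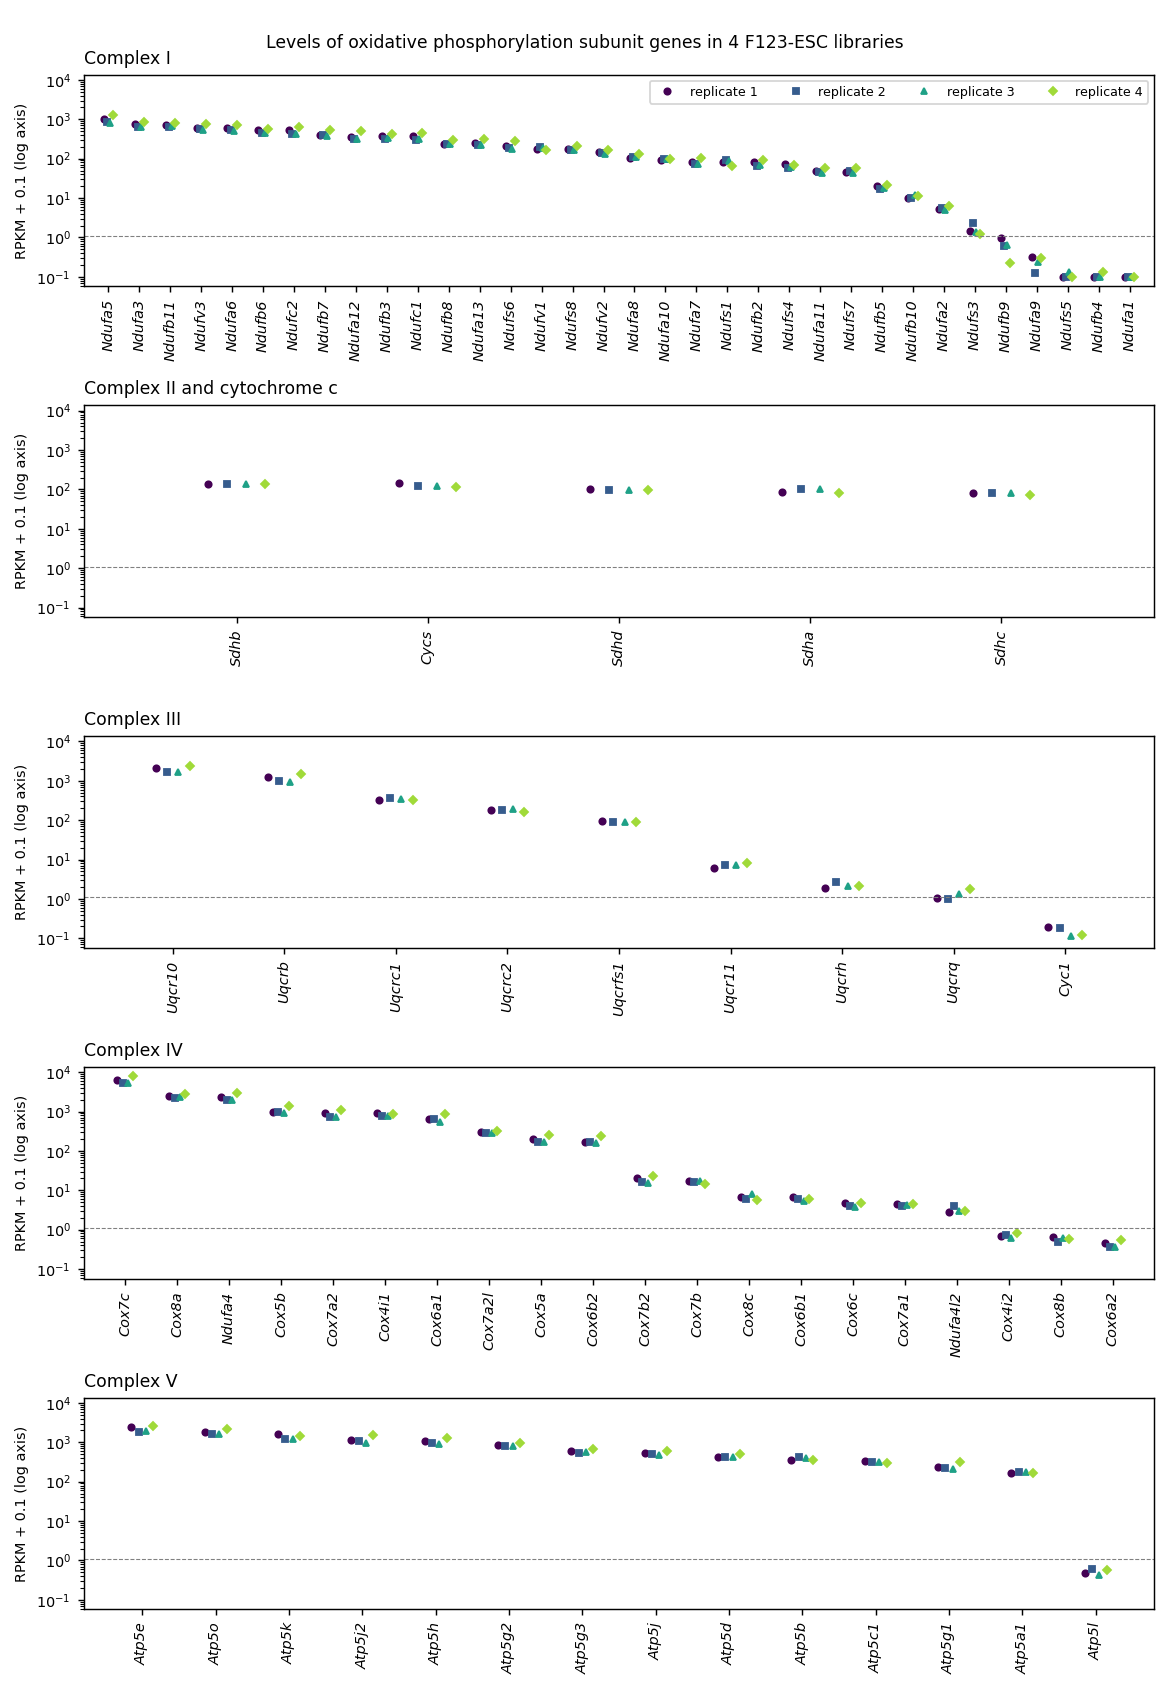
Level of 82 of the genes in each of the 4 libraries, in RPKM plus 0.1 on a log axis, by complex and in the order of the mean; the dashed line marks 1 RPKM. The libraries lie close together for genes of high level, 10 genes are below the line, and complex V holds 13 of 14 genes above 100 RPKM.

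Complex V, the ATP synthase, had the highest median of the complexes, with 578, 520, 528 and 641 RPKM in replicates 1 to 4 (567 ± 55.6, SD, n = 4). Of its 14 genes 13 were above 100 RPKM. Subunits of the catalytic F1 part spanned a wide range: Atp5a1 (α subunit) was at 172 ± 5.54 RPKM, Atp5b (β subunit, which holds the catalytic site) at 386 ± 35.5 RPKM, Atp5c1 (γ subunit, the rotating shaft) at 316 ± 14.5 RPKM and Atp5d (δ subunit) at 451 ± 44.7 RPKM. The highest of the complex was Atp5e (ε subunit, also of F1) with 2429, 1871, 1923 and 2643 RPKM in replicates 1 to 4, followed by Atp5o, the subunit of the peripheral stalk that gives oligomycin sensitivity, with 1820 ± 257 RPKM. For Atp5e, replicates 1 and 4 stood above replicates 2 and 3. Atp5o shares 41.6% of its stretches of 50 bases with transcripts of other genes, the largest share among the members, so that its reads are uncertain. Large shares were also found for Atp5g2 (38.3%), Ndufb6 (31.6%), Ndufa13 (28.5%), Cycs (26.1%), Uqcrb (25.5%) and Cox7c (22.1%), to which the same limit applies. The only gene of the complex below 100 RPKM was Atp5l (g subunit), listed at 0.425 ± 0.0805 RPKM from 43 to 101 reads per allele and library. The length behind its value was 6310 bp, against 309 bp for its longest coding sequence.

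Complex I, the largest complex of the chain, was intermediate, with a median of 148 ± 14.0 RPKM over 35 genes. Its core subunits, which carry the electrons from NADH to the quinone site, ranged widely. Ndufv1, the NADH-binding subunit, was at 183 ± 14.0 RPKM, Ndufs8 at 180 ± 21.4 RPKM and Ndufv2 at 148 ± 14.0 RPKM. Ndufs1, the largest subunit, was at 82.2 ± 10.8 RPKM and Ndufs7 at 48.7 ± 5.78 RPKM. Ndufs3, by contrast, was listed at 1.37, 2.28, 1.27 and 1.14 RPKM, with replicate 2 above the other libraries. Among the accessory subunits, Ndufa5 was the highest, at 990 ± 225 RPKM.

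Complex II, which is also an enzyme of the tricarboxylic acid cycle, had the most even levels, but also the fewest genes of the complexes. Sdha (flavoprotein) was at 94.4 ± 12.4 RPKM, Sdhb (iron-sulphur subunit) at 135 ± 1.92 RPKM, and the membrane anchors Sdhc and Sdhd at 79.1 ± 3.75 and 98.6 ± 1.82 RPKM. All 4 genes lay within a 1.71-fold range. The median SD of log2 levels between the libraries was 0.048 for this complex, while Sdha alone had 0.190. Over all members of at least 1 RPKM the median SD was 0.184, and over all protein-coding genes of that level 0.131.

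Complex III spanned the range from 0.0529 to 1968 RPKM, with a median of 91.3 ± 2.60 RPKM over 9 genes. Uqcrc1 and Uqcrc2, the core proteins, were at 344 ± 18.4 and 180 ± 9.79 RPKM, and Uqcrfs1, the Rieske iron-sulphur protein, at 91.3 ± 2.60 RPKM. The small subunits Uqcr10 (1968 ± 322 RPKM) and Uqcrb (1170 ± 259 RPKM) were the highest. Cyc1, which encodes cytochrome c1, was listed at 0.0883, 0.0823, 0.0171 and 0.0241 RPKM, from 13 reads in all. Its electron acceptor cytochrome c, encoded by Cycs, was at 148, 121, 119 and 115 RPKM.

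Complex IV held the highest and many of the lowest values, with a median of 101 ± 19.3 RPKM over 20 genes. Cox7c was at 6440, 5264, 5352 and 7808 RPKM in replicates 1 to 4, the highest level of all members, followed by Cox8a (2461 ± 280 RPKM) and Ndufa4 (2341 ± 458 RPKM). Cox4i1, Cox5a and Cox5b, which surround the catalytic subunits encoded in mitochondrial DNA, were at 817 ± 68.1, 198 ± 39.0 and 1064 ± 216 RPKM. With all exons as the length, Cox7c, Cox8a, Uqcr10 and Ndufa4 were still the 4 highest members, and Atp5k (824 RPKM) took the place of Atp5e as the fifth.

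In the mean, 10 genes were below 1 RPKM, among them subunits that belong to complexes I, III and V in mammalian tissues in general. Ndufa1, an X-linked subunit of complex I, was listed at 0 in all 8 columns. Ndufb4 and Ndufs5 had 1 read each, summed over all libraries and both alleles. Ndufa9 was listed at 0.148 RPKM and Ndufb9 at 0.505 RPKM, the latter with 0.851, 0.512, 0.529 and 0.127 RPKM and so lowest in replicate 4. The others were Cyc1, Atp5l and the tissue isoforms Cox4i2, Cox6a2 and Cox8b. Atp5l had 501 reads in all over a length of 6310 bp, while Cox7a1, listed at 4.18 RPKM, had 313 over 393 bp. A further 10 genes were between 1 and 10 RPKM: Uqcrq, Ndufs3, Uqcrh, Ndufa4l2, Cox7a1, Cox6c, Ndufa2, Cox6b1, Cox8c and Uqcr11. Overlap with exons of other genes was found for 8 of these 20 low genes and for 20 of the 63 higher ones, and the median share of stretches of 50 bases found in other transcripts was 2.79% and 1.02%. The median of the longest coding sequence was 279 bp for the low and 432 bp for the higher genes. What part the number of strain differences and the length have in the low values was not tested.

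Several subunits of complexes IV and V come in isoforms that are known for different tissues. In 11 pairs fixed as a list, levels were compared within each library by an exact two-sided sign-flip permutation test, whose smallest possible p with 4 libraries is 0.125; no pair can therefore pass 0.05. The first isoform was higher in all 4 libraries for Cox4i1 over Cox4i2 (lung and hypoxia isoform, 0.613 ± 0.0854 RPKM), Cox6a1 (673 ± 126 RPKM) over the heart and muscle isoform Cox6a2 (0.333 ± 0.0795 RPKM), Cox7a2 (874 ± 188 RPKM) over the muscle isoform Cox7a1 (4.18 ± 0.193 RPKM) and Cox8a over Cox8b and Cox8c (exact p = 0.125, Benjamini-Hochberg adjusted 0.138 for each). Cox8b, the muscle isoform, was at 0.483 ± 0.0673 RPKM and Cox8c, known from testis, at 6.52 ± 0.940 RPKM. On the log2(RPKM + 0.1) scale, the differences were 10.16 ± 0.14 for Cox4i1 and Cox4i2, 10.60 ± 0.16 for Cox6a1 and Cox6a2, 7.65 ± 0.25 for Cox7a2 and Cox7a1, and 12.04 ± 0.17 and 8.54 ± 0.31 for Cox8a against Cox8b and Cox8c (SD, n = 4). With all exons as the length, Cox4i1 minus Cox4i2 was 9.21. Ndufa4 was higher than Ndufa4l2, which is known as a hypoxia-induced gene, by 9.52 ± 0.44 (exact p = 0.125, adjusted 0.138).

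Cox6b was listed the other way round. The testis isoform Cox6b2 was at 169, 173, 155 and 236 RPKM, while the ubiquitous Cox6b1 was at 6.48, 5.86, 5.33 and 6.01 RPKM. No library overlapped, and Cox6b2 was 30.1-fold higher (log2 difference 4.91 ± 0.25 in its favour in 4 of 4 libraries, exact p = 0.125, adjusted 0.138). The direction was the same on S129 alone, on CAST alone and with all exons as the length, where Cox6b1 minus Cox6b2 was -3.64 on the log2 scale in place of -4.91. Cox6b2 had 13528 reads in all and Cox6b1 693, and neither number says how many strain differences they rest on. Cox7b2, another isoform known from testis, was at 20.9, 16.3, 15.1 and 23.2 RPKM and the X-linked Cox7b at 17.1, 15.9, 16.7 and 14.6 RPKM; these values overlapped, and Cox7b was lower in 3 of 4 libraries (log2 difference -0.21 ± 0.35, exact p = 0.375). The level of Cox7b2 is here the mean of both alleles and that of Cox7b the S129 allele alone, so that the overlap depends on this definition. On S129 alone, Cox7b2 was above Cox7b in every library, without overlap (-0.88, exact p = 0.125). With all exons as the length, the difference was -0.49 (exact p = 0.125). The 3 genes for the c subunit of complex V, whose ring rotates with the passing protons, encode the same mature protein. By listed values, they stood in the order Atp5g2 (850 ± 75.7 RPKM), Atp5g3 (602 ± 59.1 RPKM) and Atp5g1 (251 ± 48.8 RPKM) in all 4 libraries. Atp5g1 nevertheless had the most reads in all, 217039 against 115897 for Atp5g2 and 81605 for Atp5g3. Its reads were divided by a length of 4715 bp, and those of Atp5g2 and Atp5g3 by 731 and 723 bp. The reads of Atp5g2 are uncertain, since 38.3% of its stretches are shared with transcripts of other genes. With all exons as the length, Atp5g1 was instead higher than Atp5g3 by 0.26 on the log2 scale. The difference of Atp5g1 from Atp5g2 shrank from -1.77 to -0.64. The order of Atp5g1 and Atp5g3 thus depends on the length. With all exons it was 4912 bp for Atp5g1, little changed, but 1675 bp for Atp5g2 and 2181 bp for Atp5g3.

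**Figure D2:**
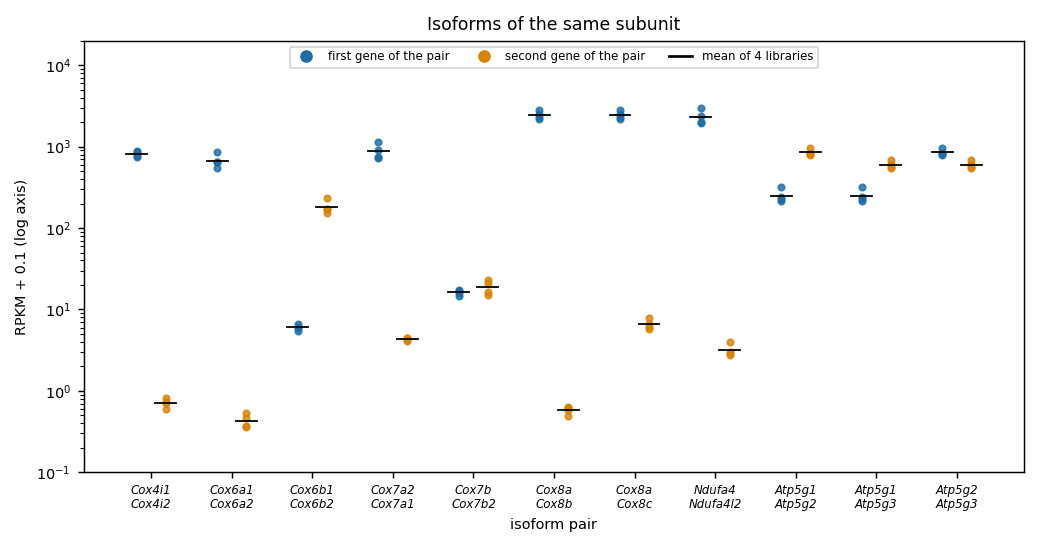
Levels of the 11 isoform pairs, in RPKM plus 0.1 on a log axis; points are the 4 libraries, bars their mean, blue the first and orange the second gene. The Cox6b pair is the one with the tissue isoform clearly above the ubiquitous gene. The Cox7b pair overlaps when Cox7b2 is drawn as the mean of both alleles and Cox7b as the S129 allele alone.

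The libraries differed in a way that went with the length of the coding sequence. Replicate 4, with the fewest reads, had the highest level for 48 of the 73 members of at least 1 RPKM, against 15.3% of the 11165 protein-coding genes of that level. Relative to the other libraries, its level was a median of 1.20-fold for the members and 0.910-fold for all these genes. The members that stood out were those with a short coding sequence: below 600 bp, a limit set after the values were seen, 43 of 55 members were highest in replicate 4 (78.2%), with a median of 1.24-fold. From 600 bp, 5 of 18 were (27.8%), namely Atp5o, Ndufs7, Ndufs8, Ndufv2 and Ndufv3, with a median over the 18 of 0.960-fold. The same contrast was present among all protein-coding genes, with 49.6% and 10.2%, and among those of at least 100 RPKM, with 73.8% and 18.0%. The share of the short members was thus close to that of abundant genes of short coding length in general, which include them.

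Ndufa12, an accessory subunit of complex I, had the largest spread of the well-covered members, with 356, 323, 308 and 518 RPKM; replicate 4 was at 1.58 times the mean of the others. Ndufa5 gave 989, 852, 812 and 1308 RPKM and Cox5b 977, 990, 905 and 1383 RPKM, again highest in replicate 4. Among members of at least 1 RPKM, larger SD on the log2 scale were found only for Ndufs3 (0.42) and Uqcrq (0.36), which had 120 and 331 reads in all. Some members of long coding sequence went the other way: Ndufs1 gave 82.9, 89.8, 89.4 and 66.8 RPKM and Sdha 84.7, 105, 105 and 82.7 RPKM, both lowest in replicate 4. Lowest in replicate 4 were also 4 short genes, Cox7b, Cox8c, Cycs and Sdhc. Across the 73 members, Pearson's r of the log2 deviation in replicate 4 with the log2 coding length was -0.49 (Spearman's rho -0.39), and across the 11165 genes -0.29 (rho -0.26), while among the 55 short members it was 0.014 (rho -0.047); genes of a library share its RNA and its depth and are not independent. By complex, the median of replicate 4 over the other libraries was 1.24-fold for complex I, 0.948-fold for complex II, 1.08-fold for complex III, 1.21-fold for complex IV and 1.18-fold for complex V. The summed level of the feeder markers was 180, 212, 227 and 192 RPKM in replicates 1 to 4. The part of depth in this pattern was not tested. Without replicate 4, the median SD of the members fell from 0.184 to 0.108.

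**Figure D3:**
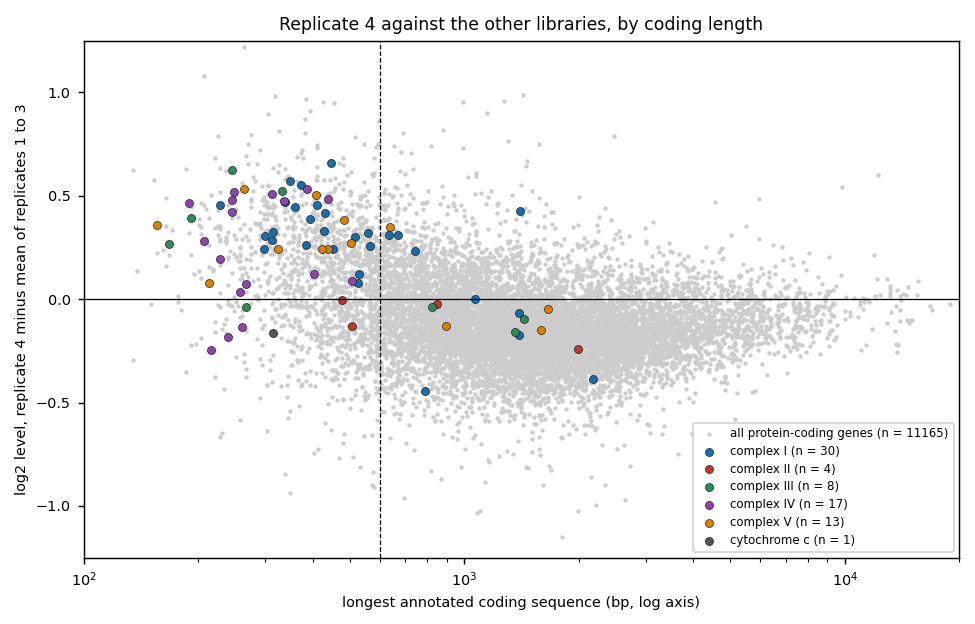
Log2 level of replicate 4 minus the mean of the other libraries, against the longest annotated coding sequence on a log axis, for the 73 members of at least 1 RPKM (coloured by complex) and for 11165 protein-coding genes (grey; 5 of them lie outside the axis). Most members left of the dashed line at 600 bp are above 0, and most to its right are at or below it.

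Between the alleles, the members split evenly. The comparison took the difference of log2(RPKM + 0.1) within each library and tested it by limma over 13341 genes whose mean RPKM of S129 and of CAST summed to 1 or more, as did those of 75 members. At an adjusted p under 0.05, 25 members were called toward S129 and 23 toward CAST. Among all genes these calls made up 31.4% and 31.3%, so that the members were near the background. For the 73 autosomal members, 23 were higher on S129 and 23 on CAST, against 28.9% and 32.5% of the 12869 autosomal genes. Differences of at least 2-fold were found in 4 autosomal members toward S129 and 3 toward CAST, against 6.29% and 5.63% of autosomal genes. The median of the autosomal members was 0.015 on the log2 scale, and of all autosomal genes -0.021. The size of the difference, regardless of direction, had a median of 0.23 in the members and 0.29 in all autosomal genes. When the autosomal values of each column were rescaled to one sum, the median of all genes shifted by 0.10 toward S129, and 36 members were then higher on S129 and 16 on CAST (62.5% of all called genes were higher on S129, against 50.0% before).

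**Figure D4:**
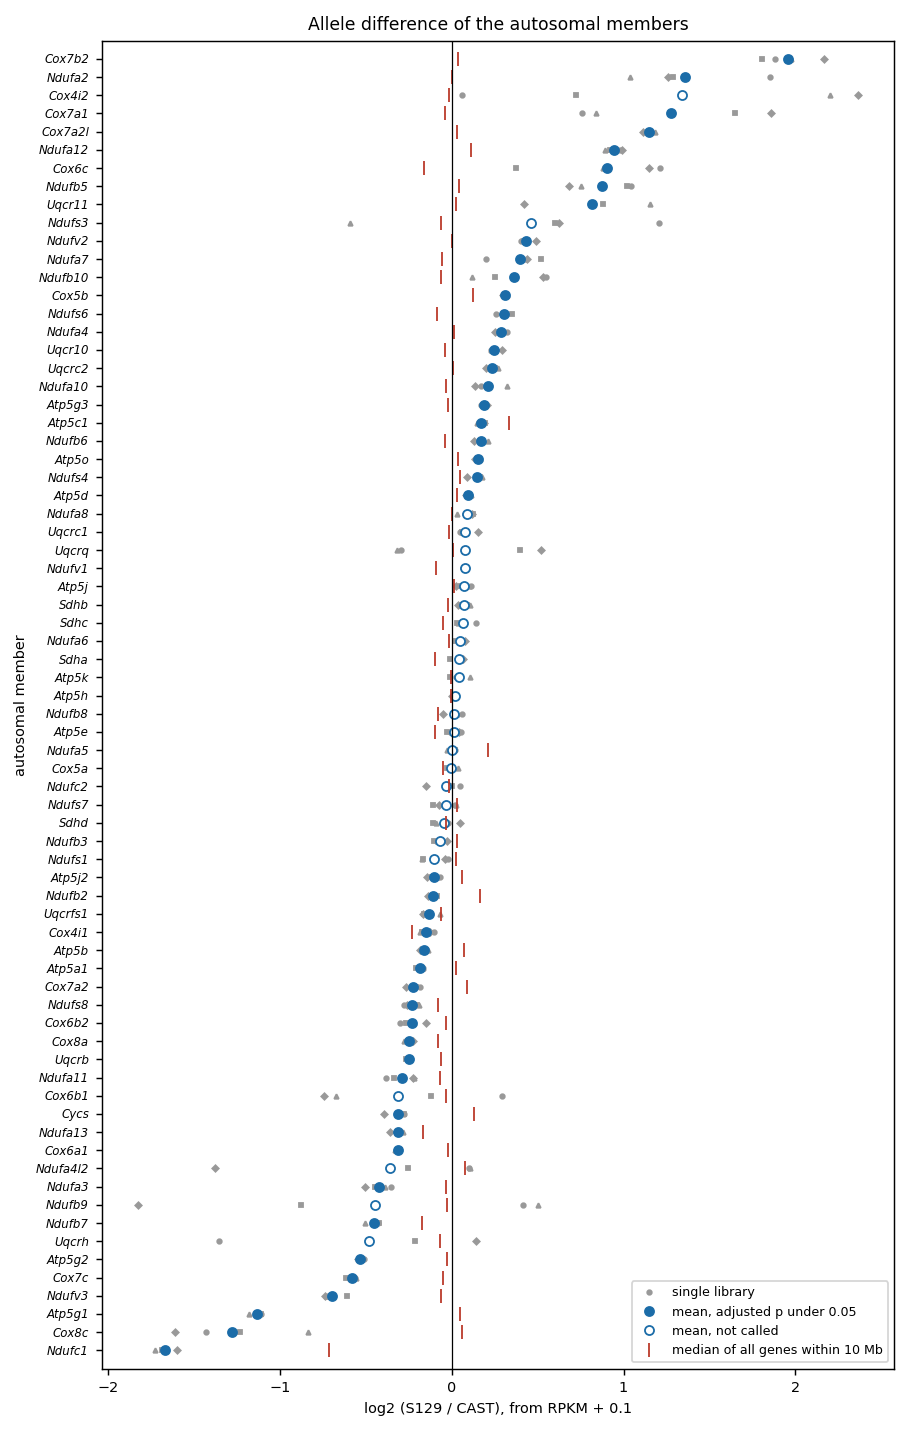
Log2 difference of S129 and CAST for 72 of the autosomal members tested; small grey points are single libraries, large points their mean (filled where the adjusted p was under 0.05), and red ticks the median of all genes within 10 Mb. Members at both ends lie far from their red tick, and genes with few reads, such as Ndufb9 and Cox4i2, scatter widely.

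The largest difference toward CAST was that of Ndufc1, a small accessory subunit of complex I (chr3:51404677-51408988 in mm10). It had 177, 139, 148 and 222 RPKM on S129 and 563, 447, 491 and 673 RPKM on CAST, so that every CAST value was above every S129 value (log2 difference -1.67 ± 0.04 SE, adjusted p = 1.43e-05). Genes around it shared the direction: the median of all genes within 10 Mb was -0.72, and with it taken out Ndufc1 was at -0.95. Cox8c had 3.49, 3.57, 5.60 and 2.76 RPKM on S129 and 9.56, 8.52, 10.1 and 8.62 RPKM on CAST, again without overlap (-1.28 ± 0.14). Atp5g1 was at 153, 143, 131 and 202 RPKM on S129 and at 331, 309, 297 and 443 RPKM on CAST (-1.13 ± 0.03), and among the other c subunit genes Atp5g2 was also higher on CAST (-0.53 ± 0.03) while Atp5g3 was higher on S129 (0.19 ± 0.03). Ndufv3 (-0.70 ± 0.04) and Cox7c (-0.58 ± 0.03), the most abundant member, followed. For Cox8c, Atp5g1, Ndufv3 and Cox7c, the median of the genes within 10 Mb was between -0.06 and 0.06.

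The largest autosomal difference toward S129 was that of Cox7b2, with 33.0, 25.4, 24.2 and 38.1 RPKM on S129 and 8.88, 7.20, 6.09 and 8.39 RPKM on CAST (1.96 ± 0.07, adjusted p = 6.45e-05). Ndufa2, a complex I subunit, followed with 1.36 ± 0.15 and the muscle isoform Cox7a1 with 1.28 ± 0.23, both from low values. Cox7a2l, whose protein binds complex III and is known for joining it with complex IV in supercomplexes, had 426, 403, 392 and 439 RPKM on S129 and 193, 181, 172 and 202 RPKM on CAST (1.15 ± 0.03, adjusted p = 2.68e-05). Ndufa12 had 472, 423, 400 and 689 RPKM on S129 and 240, 223, 215 and 347 RPKM on CAST (0.95 ± 0.03). In each of these 5 genes S129 was higher in 4 of 4 libraries, and the median of the genes within 10 Mb was between -0.04 and 0.11.

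By complex, 10 of the 30 autosomal complex I genes tested were higher on S129 and 8 on CAST, 3 and 2 of 8 in complex III, 6 and 7 of 17 in complex IV and 4 and 5 of 13 in complex V, beside the 28.9% and 32.5% of all autosomal genes. In complex II none of the 4 genes was called: Sdha differed by 0.04 ± 0.03, Sdhb by 0.07 ± 0.03, Sdhc by 0.07 ± 0.04 and Sdhd by -0.04 ± 0.04 (SE; adjusted p from 0.120 to 0.403). With autosomal values rescaled, Sdha (0.14, adjusted p = 0.0329), Sdhb (0.17, adjusted p = 0.0182) and Sdhc (0.17, adjusted p = 0.0316) were called toward S129. Sdhb was also called with a variance trend (adjusted p = 0.0239), and Sdha with the median of its neighbours taken out (0.14, adjusted p = 0.0187). The core F1 genes of complex V went in both directions, with Atp5a1 (-0.18 ± 0.03) and Atp5b (-0.16 ± 0.03) higher on CAST and Atp5c1 (0.17 ± 0.03) higher on S129; with autosomal values rescaled, Atp5a1 (-0.080) and Atp5b (-0.056) lost their call. Relative to its neighbours within 10 Mb, whose median was 0.33, Atp5c1 was instead lower on S129 (-0.16, adjusted p = 0.0137). Cycs was higher on CAST (-0.31 ± 0.04), although its neighbours had a median of 0.13.

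On chromosomes 3, 6, 8 and 16, where the share of S129 reads was known from earlier results of these data to shift over long stretches, 11 of the 13 members could be tested. On chromosome 3, Ndufb5 was higher on S129 (0.88 ± 0.08) and Ndufc1 on CAST. On chromosome 6, Ndufa4 was higher on S129 (0.29 ± 0.03), Cycs and Ndufb2 (-0.11 ± 0.03) on CAST, and Ndufa5 was not called (-0.00024 ± 0.03). Relative to the median of this chromosome, Ndufa4 lost its call (0.083, adjusted p = 0.0820) and Ndufa5 was called toward CAST (-0.20, adjusted p = 0.00593), as it was with its neighbours taken out (-0.21, adjusted p = 0.00711). The neighbours of Ndufa4 within 10 Mb had a median of 0.012, and with them taken out Ndufa4 kept its call. On chromosome 8, Ndufb7 (-0.45 ± 0.03), Ndufa13 (-0.31 ± 0.03) and Cox4i1 (-0.15 ± 0.03) were all higher on CAST, as were their neighbours (medians -0.17, -0.17 and -0.23). With the median of the chromosome taken out, Ndufa13 (-0.081, adjusted p = 0.0832) lost its call and Cox4i1 turned (0.087, adjusted p = 0.0807). With autosomal values rescaled, Cox4i1 (-0.044) and Ndufb2 (-0.0057) were not called. Leaving out any 1 library ended the call of Ndufb2 (-0.12 to -0.099), and leaving out replicate 2 or 3 ended that of Cox4i1 (-0.14 and -0.13). On chromosome 16, Atp5o was higher on S129 (0.15 ± 0.03) and Atp5j was not called (0.07 ± 0.03, adjusted p = 0.120). With the median of the chromosome taken out, both turned and were called toward CAST (Atp5o -0.52, adjusted p = 0.000312; Atp5j -0.61, adjusted p = 0.000308), whereas with neighbours taken out Atp5o remained higher on S129 (0.12, adjusted p = 0.0348). Atp5j was called toward S129 with autosomal values rescaled (0.18, adjusted p = 0.0262) and with a variance trend (adjusted p = 0.0169). Without the members of these 4 chromosomes, 20 were higher on S129 and 17 on CAST.

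The single X chromosome of these male cells is of the mother, and the X-linked members followed it. Cox7b (chrX:106015700-106022450) had 492, 409, 411 and 254 reads on S129 and none on CAST in any library, which allows a CAST share of up to 0.192%; counted against 3 reads over all libraries, S129 was at least 503-fold higher. Ndufb11 (chrX:20615326-20617619), an accessory subunit of complex I, had 18636, 14675, 15112 and 12571 reads on S129 and 9, 10, 7 and 4 on CAST, a CAST share of 0.0492% (exact binomial 95% interval 0.0332 to 0.0702%). These intervals cover counting error only. Ndufa1, as given above, had no reads on either allele.

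Genes that assemble or feed the complexes were expressed at lower levels. The 14 complex I assembly factors had a median of 19.4 RPKM, the 33 assembly factors of complexes II to V 21.4 RPKM, the 13 genes of coenzyme Q synthesis 19.9 RPKM and the 14 enzymes of the tricarboxylic acid cycle 73.8 RPKM, against 180 RPKM as the median of the mean levels of the members. Ndufab1, a complex I subunit that is also the mitochondrial acyl carrier protein, was at 42.8 ± 5.36 RPKM and higher on CAST (-0.74 ± 0.06). Of the autosomal genes tested, 2 of 12 complex I assembly factors were higher on S129 and 6 on CAST, 7 and 12 of 29 among the assembly factors of the other complexes, 2 and 5 of 13 in coenzyme Q synthesis, and 5 and 5 of 13 in the tricarboxylic acid cycle, beside 28.9% and 32.5% of all autosomal genes. Differences of at least 2-fold were had by 6.29% and 5.63% of autosomal genes toward S129 and CAST. In these lists they were found in Lyrm7, a chaperone of the Rieske protein (-2.24 ± 0.16), Sdhaf4 (-1.04 ± 0.04), Uqcc2 (-1.45 ± 0.40) and Cox11, which delivers copper to complex IV (1.21 ± 0.05). The difference of Uqcc2 rests on low values, as its level was 0.677 ± 0.188 RPKM. Of the 11 regulators of mitochondrial genes tested, 3 were higher on S129, among them Nrf1 (0.22 ± 0.05) and Tfam (0.22 ± 0.03), and 4 on CAST, among them Yy1 (-0.25 ± 0.04) and Esrra (-0.18 ± 0.04).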

How the data were processed

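RNAseq of untreated F123-ESCs was examined in 4 libraries. The authors removed ribosomal reads, trimmed the remaining ones (Trimmomatic 0.40), aligned them with STAR to mm10 masked at the strain differences, assigned them to alleles by SNPsplit, and deposited RPKM per gene and allele. The deposited file also holds the authors' average RPKM of each allele and its log10 after adding 1, which were not used. The program that counted reads on genes and the annotation are not given in the sources used here. The first S129 column writes its replicate number with a minus sign, read as replicate 1.

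The smallest steps between RPKM values gave the read totals and the length used for each gene, using transcript lengths of GENCODE M21; whole reads (within 0.02 reads plus a relative rounding of 2e-07) resulted for 20134 of 20243 genes above 0. For 10 members no annotated length matched and the smallest matching length from 50 to 30000 bp was taken, so that their reads are the fewest possible. Genes were annotated by GENCODE M21 (mm10; 23995 of 24026 matched). Coding length is that of the longest annotated coding sequence. Shared sequence was counted over all transcript stretches of 50 bases.

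Alleles were compared by limma 3.58.1 (R 4.3.3) on differences of log2(RPKM + 0.1) within each library, with Benjamini-Hochberg adjustment over all genes tested; this scale understates differences of low genes. S129 and CAST columns are paired by their replicate number, since each library gave both. Across 13341 genes, deviations of columns of the same number correlated with 0.105 to 0.195, and of different numbers with -0.155 to 0.140. These ranges overlap, so that the correlations do not settle the pairing. Levels, spread and promoters are descriptions, with means ± SD over the 4 libraries. Scripts were tested on simulated data.

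The members and lists were chosen with earlier results of these data known. Named genes follow a rule: the 5 highest members, the 5 autosomal members with the largest called allele difference in each direction, all X-linked members, 11 isoform pairs, the 3 of at least 1 RPKM with the largest SD, core subunits, members under 1 RPKM, and members on chromosomes 3, 6, 8 and 16; others were named after their values were seen. Alternatives were another pseudocount, no or a stricter filter, no replicate block, rescaling, chromosome medians taken out, a variance trend, whole reads, single alleles, exon-union lengths and each library left out. Medians of neighbours within 10 Mb, the split at 600 bp and the motifs were added after seeing the data. No column belonged to another sample (0). The values of 1 member are not reported here; it is included in counts and medians.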

Additional observations from a re-analysis of the deposited data

Results flagged for a closer look

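In 4 libraries, a value that stood apart from the other 3 by Dixon's 95% criterion was found in 2 of 109 sets tested, the levels and allele differences of the named genes, the medians of the complexes and the share of reads; chance gives about 1 in 20. The log2 allele difference of Ndufv3 was -0.61 in replicate 2, closer to 0 than in the other libraries, and its direction was the same in all 4. The log2 allele difference of Uqcrc1 was 0.15 in replicate 4, above the other libraries; Uqcrc1 was not called (0.08 ± 0.04 SE, adjusted p = 0.106, limma).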

How the results depend on the processing

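The counts of members and of all genes called in each direction stayed within 1.5 times under every alternative but one: with no replicate block, 15 members were higher on S129 and 10 on CAST. The even split did not hold within that limit. With autosomal values rescaled, the members went from 25 and 23 to 36 on S129 and 16 on CAST, and all genes from 4187 and 4182 to 5121 and 3072. Left out one at a time, the libraries gave 21 to 24 members higher on S129 and 19 to 20 on CAST. The median allele difference of the members moved from 0.017 to 0.041 with no filter, to 0.12 with autosomal values rescaled and to 0.044 with the median of neighbours taken out. The median level of the members moved from 171 RPKM to 115 with exon-union lengths, 165 on S129 alone, 180 on CAST alone and 243 for members of at least 1 RPKM. In the same order, complex I gave 102 RPKM (exon union), 125 (CAST alone) and 204 (at least 1 RPKM); complex II gave 74.1 (exon union); complex III gave 87.1 (S129 alone), 95.6 (CAST alone) and 136 (at least 1 RPKM); complex IV gave 42.6 (exon union), 182 (CAST alone) and 198 (at least 1 RPKM); and complex V gave 259 (exon union). CAST alone leaves out the X-linked members, which for complex IV is Cox7b. The main median of complex IV lies in a gap between Cox7b2 (18.9 RPKM) and Cox6b2 (183 RPKM). Its value on CAST alone is therefore not a shift of its genes, and S129 alone, with Cox7b kept, gave 99.5 RPKM. Of the isoform pairs, Atp5g1 minus Atp5g3 turned from -1.27 to 0.26 with exon-union lengths. The median SD of the members was 0.108 to 0.200 with a library left out, lowest without replicate 4. Members highest in replicate 4 numbered 45 to 46 of 71 to 73 on single alleles or after rescaling.

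Single genes that turned direction between alleles were mostly near 0. With autosomal rescaling these were Cox5a (0.099), Ndufa5 (0.10), Ndufs1 (0.0025), Ndufs7 (0.068) and Sdhd (0.060). With chromosome medians taken out, Atp5j (-0.61), Atp5o (-0.52), Cox4i1 (0.087) and Cox5a (0.0068) turned, and with neighbours taken out Atp5c1 (-0.16), Cox4i1 (0.084) and Cox5a (0.044). Without one library, Cox5a ranged from -0.018 to 0.0040, Ndufa5 from -0.0064 to 0.0086, Ndufb9 from -0.76 to 0.014 and Uqcrq from -0.071 to 0.21. Calls were lost for Ndufb2 without any 1 library (-0.12 to -0.099), for Cox4i1 without replicate 2 or 3 (-0.14 and -0.13) and for Uqcrfs1 without replicate 1, 2 or 4 (-0.13, -0.13 and -0.12), and gained for Cox4i2 without replicate 1 (1.76) and Ndufs3 without replicate 3 (0.81). The cause of these moves was not tested. For genes of few reads, depth limits what can be seen.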
